A study of Mus musculus with 13 samples.

Results

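The 5 control arrays of the series comprised 2 arrays that carried the RNA of endothelial cells at high levels and 3 that did not. The 2 sets were chosen by a measured value, the deposited intensity of 1 Cdh5 probe set, with a limit of 6 on the log2 scale. Cdh5 encodes VE-cadherin, the adhesion protein of endothelial junctions. The deposited Cdh5 values were 8.25 and 8.26 on control arrays 4 and 5, called endothelial-rich here, and 2.95, 2.51 and 2.99 on control arrays 1, 2 and 3, called endothelial-poor. No control array lay between 2.99 and 8.25, so every limit within that gap gives the same 2 sets. On the 8 arrays of the B20 groups the same probe set lay between 2.26 and 4.42, and all of them would have been endothelial-poor.

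All 13 arrays are Affymetrix expression arrays whose labels give mouse endothelial cells sorted with an antibody to CD31. The B20 arrays came from SKOV3ip1 tumors grown in mice, and the labels do not give the tissue of the control arrays. SKOV3ip1 is a human ovarian cancer line, and the antibody B20 blocks VEGF-A, a growth factor on which new vessels depend. The labels name 5 arrays as control endothelial cells, 4 as sensitive and 4 as resistant to B20, each a biological replicate. By the methods of the study, the tumor cells carried luciferase, the animals received a control IgG or B20, and treated animals were placed in the sensitive or the resistant group by their bioluminescence. Athymic nude mice, which lack mature T cells, and C57BL/6 mice are both listed in those methods. In its results the study put SKOV3ip1 cells into nude mice for an aptamer experiment, and mouse ID8 cells into C57BL/6 mice. The labels give neither the strain nor the age nor the treatment of a control array, and their protocol text describes the digest, the removal of platelets and red cells on Percoll and the sort for the B20 tumors only. They do not tie arrays to animals, so any p-value below measures the spread between these arrays.

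Endothelial cells line blood and lymph vessels. They hold together through VE-cadherin and claudin 5, sense VEGF-A through the receptors KDR and FLT1, sense angiopoietins through the receptor TEK, and lie on a basement membrane of type IV collagens and laminins that they help to build. CD31, the protein used for the sort, is encoded by Pecam1 and sits on endothelial cells, but monocytes and some macrophages carry it too, as do platelets, which the Percoll step was meant to remove. A bulk array reads the summed RNA of all sorted cells, so fewer cells of a type and less RNA per cell cannot be told apart.

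Because a measured value chose the arrays, the difference between the endothelial-rich and the endothelial-poor arrays is described here without any test. A gene was counted as higher or lower where the values of the 2 sets did not overlap and their means differed by at least 1 on the log2 scale, which is 2-fold. Of 15181 genes above a low floor of 2.01 on at least 2 control arrays, 629 were counted as higher on the endothelial-rich arrays (4.14%) and 259 as lower (1.71%). With a difference of at least 2, which is 4-fold, 221 were higher (1.46%) and 21 lower (0.138%). On both endothelial-rich arrays 330 of the higher genes lay above all other 11 arrays, B20 arrays included (2.17%), and 40 of the lower genes lay below them (0.263%). The median difference over all 15181 genes was -0.09, with 5920 genes above and 9261 below 0. The counts depend on control array 1, since without it 991 genes were higher and 522 lower, and 594 of the 629 and 241 of the 259 genes stayed among them.

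Promoter sequence is shown for genes whose levels are described below, because ETS factors, which bind a GGAA core, and SoxF factors are the best known activators of endothelial genes. The sequences are from RefSeq on the mouse build GRCm38.p6 and span 300 bases around the annotated start, most of them before it, 5′ to 3′ in the direction of the gene. Capitals mark GGAA, or TTCC where the core lies on the other strand. Tek lies at chr4:94739039-94739338 on the plus strand, Robo4 at chr9:37401722-37402021 on the plus strand, and Esm1 at chr13:113209409-113209708 on the plus strand.
Tek: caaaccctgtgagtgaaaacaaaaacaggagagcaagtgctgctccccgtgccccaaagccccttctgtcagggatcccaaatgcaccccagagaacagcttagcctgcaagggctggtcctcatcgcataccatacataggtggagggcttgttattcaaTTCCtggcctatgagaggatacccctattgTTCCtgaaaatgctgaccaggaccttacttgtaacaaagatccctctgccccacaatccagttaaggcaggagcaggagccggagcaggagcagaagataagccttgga
Robo4: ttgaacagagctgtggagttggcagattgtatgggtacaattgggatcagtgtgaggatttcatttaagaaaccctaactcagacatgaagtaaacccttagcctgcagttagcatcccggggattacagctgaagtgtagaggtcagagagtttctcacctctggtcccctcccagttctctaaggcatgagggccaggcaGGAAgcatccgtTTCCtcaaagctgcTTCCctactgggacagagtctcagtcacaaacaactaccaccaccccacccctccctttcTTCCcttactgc
Esm1: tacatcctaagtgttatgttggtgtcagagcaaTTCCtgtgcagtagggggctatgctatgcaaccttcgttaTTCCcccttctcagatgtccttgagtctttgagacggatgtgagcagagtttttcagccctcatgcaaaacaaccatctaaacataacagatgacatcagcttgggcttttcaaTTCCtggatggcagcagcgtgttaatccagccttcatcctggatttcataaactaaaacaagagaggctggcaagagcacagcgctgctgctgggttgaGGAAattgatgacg
The Tek promoter held 2 matches, Robo4 4 and Esm1 4. The core is short and common, and GGAAGT, a longer form that contains it, was searched as well. GGAA was found on either strand in 96.0% of all 32851 promoters of this length, in 95.3% of the 666 promoters of 481 genes higher on the endothelial-rich arrays, and in 16 of 17 promoters of 12 genes of the endothelial identity list. GGAAGT was in 23.8% of all promoters and in 20.9% of those of the higher genes. A match is a description of the letters and not a site that a factor was shown to bind. RefSeq promoters of Cdh5, Vwf and Plvap are not shown here.

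The difference in Cdh5 was fixed by the choice of the arrays, and the other 4 endothelial markers are given beside it. Cdh5 after normalization was 3.03, 2.61 and 2.88 on endothelial-poor arrays 1, 2 and 3, and 7.96 and 8.06 on endothelial-rich arrays 4 and 5. A second Cdh5 probe set stayed close to the floor on all arrays, at 2.01, 2.01 and 2.31 against 2.61 and 2.29. Vwf, the gene of von Willebrand factor, was 2.68, 2.34 and 2.16 against 7.07 and 7.50. Both genes were near the floor on every endothelial-poor array, so a fold change understates their difference. Tek, the angiopoietin receptor, was 2.99, 2.53 and 2.18 against 7.14 and 6.77. Plvap, the protein of the diaphragms of capillary pores, was 4.06, 3.64 and 4.24 against 8.86 and 9.37. Robo4, a guidance receptor of endothelium, was 3.34, 3.26 and 2.46 against 7.47 and 8.17. The differences of the means ran from 4.39 for Tek to 5.17 for Cdh5, and the 4 genes that did not choose the arrays did not overlap between the sets. A lack of overlap alone was common, with 1900 higher and 2501 lower genes of 15181 at any size of difference. With a difference of at least 2, 1.46% of all genes were higher without overlap. Pecam1, which encodes the protein of the sort, was 2.39, 2.42 and 2.61 against 6.56 and 6.56. On the arrays of the B20 groups Pecam1 lay between 2.32 and 3.41, so the RNA of the sorting marker was high only on the 2 endothelial-rich arrays of the 13.

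**Figure D1:**
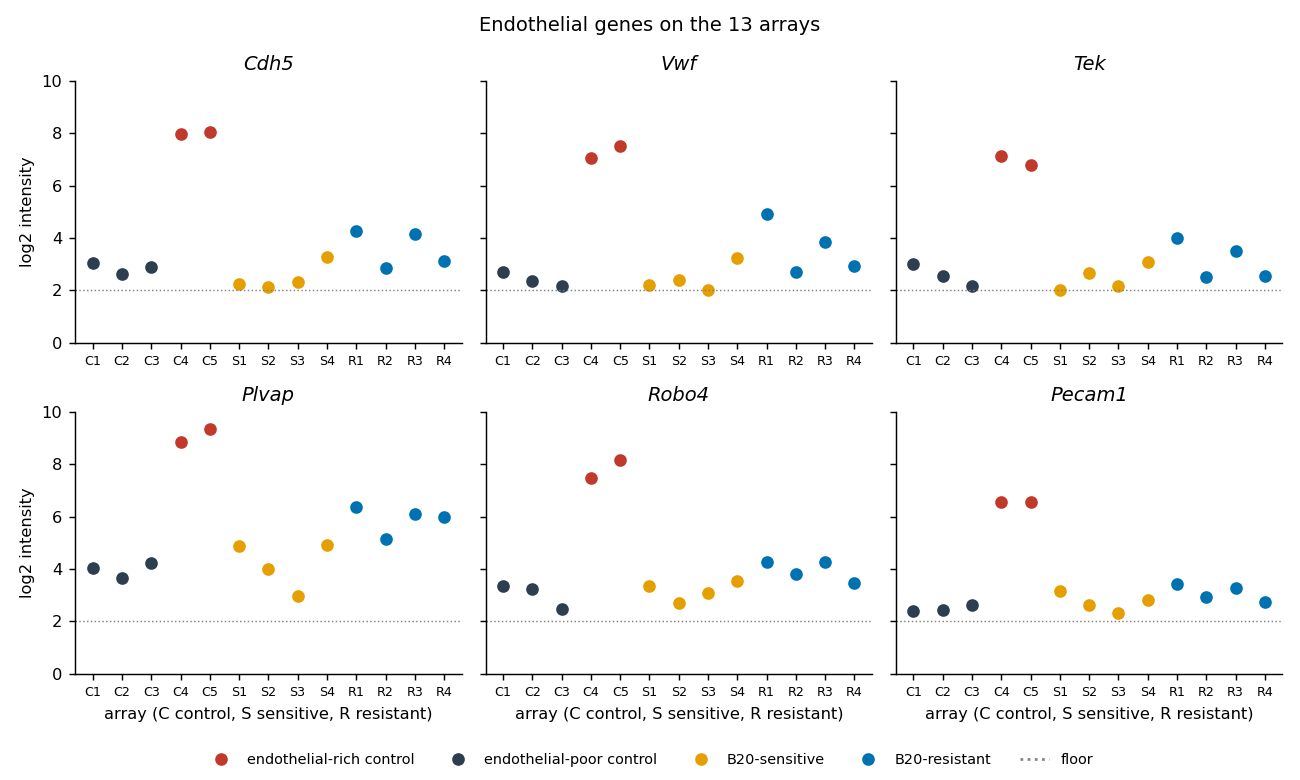
Log2 intensity of 5 endothelial markers and of Pecam1, the gene of CD31, on each array (C1 to C5 control, S1 to S4 B20-sensitive, R1 to R4 B20-resistant), with the floor of 2.01 as a dotted line. Control arrays 4 and 5 lay above the other 11 arrays for all 6 genes.

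Of 24 genes in the endothelial identity list, all were above the floor often enough to be counted, 23 were higher on the endothelial-rich arrays, 0 were lower, and 20 lay above all other 11 arrays there. The list holds Cdh5, which chose the arrays, and the markers Vwf, Tek, Plvap and Robo4, so the choice fixed part of this count. Over all genes 4.14% were higher and 1.71% lower, and these shares stand beside every list count below. The median difference was 3.25, where the median over all genes was -0.09. The median level of the list was 6.80 and 7.06 on the endothelial-rich arrays, 3.24, 3.24 and 3.35 on the endothelial-poor arrays and 2.85 to 4.28 on the B20 arrays. The exception was Erg, an ETS factor, at 3.09, 3.46 and 3.87 against 3.23 and 3.36. Among the other members, Cldn5, a tight junction claudin, was 3.32, 3.50 and 3.81 against 6.79 and 7.38. Sox18 was 2.58, 2.62 and 2.99 against 7.89 and 7.62. Icam2, Eng, Tal1 and Cd93 had the smallest differences among the higher members, at 1.03, 1.53, 1.62 and 1.68, and all of them are also known from blood cells.

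The 12 genes with the largest differences included Cdh5, Plvap, Sox18, Vwf and Robo4. Esm1, a proteoglycan secreted by tip cells of growing vessels, was 4.34, 2.01 and 2.36 against 8.94 and 8.89, a difference of 6.01. Cyyr1 was 3.06, 2.21 and 2.75 against 8.84 and 8.97 and had the largest difference of these 12, 6.23. Sox7, a SoxF factor like Sox18, was 3.51, 3.68 and 3.75 against 8.31 and 7.95. Tmem204 was 3.33, 3.02 and 3.86 against 7.68 and 7.92. These 4 genes were well separated on both endothelial-rich arrays. Rgs5, a brake on G protein signaling that is widely used as a pericyte marker, was 2.52, 2.01 and 2.01 against 6.40 and 6.75. Il23a, the p19 chain of interleukin 23, was 6.32, 4.62 and 4.37 against 10.55 and 8.99. Ift122, a gene of ciliary transport, was 4.89, 3.66 and 2.54 against 8.26 and 8.12. Il23a reached 9.55 on a B20 array, above endothelial-rich array 5, and so did not set the endothelial-rich arrays apart from the whole series.

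**Figure D2:**
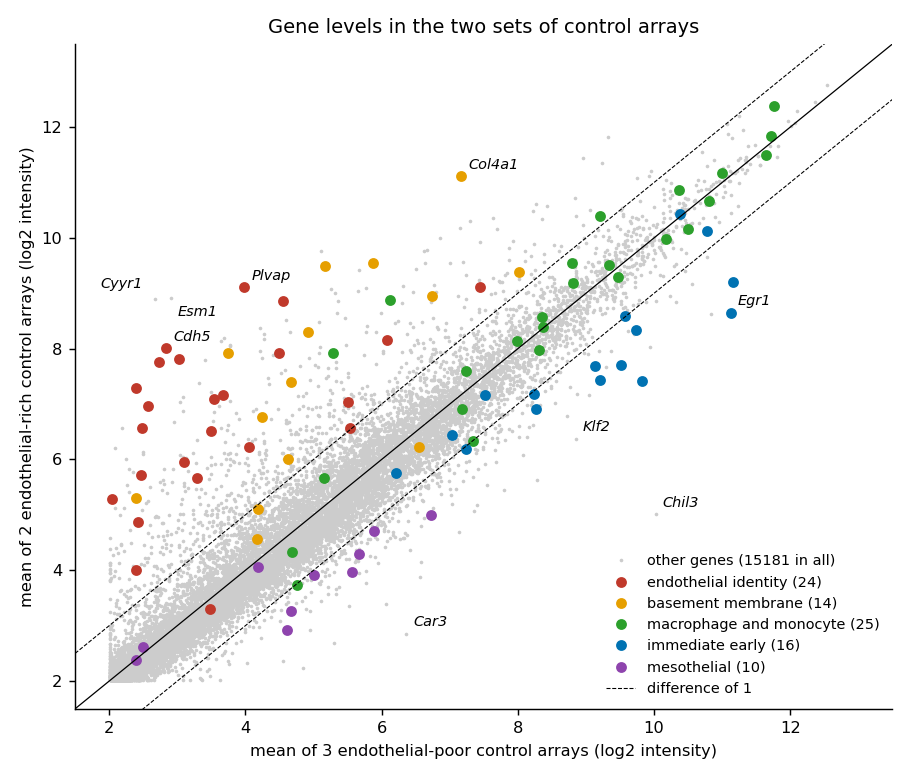
Mean log2 intensity of each of 15181 genes on the 3 endothelial-poor (horizontal axis) and the 2 endothelial-rich control arrays (vertical axis), with 5 gene lists colored and dashed lines at a difference of 1. Endothelial and basement membrane genes lie above the diagonal, macrophage genes along it, and immediate early and mesothelial genes mostly below it.

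Of 10 VEGF ligands and receptors, 7 were higher and 0 lower. Kdr, the main signaling receptor of VEGF-A, was 4.89, 3.97 and 4.79 against 8.65 and 9.08. Flt1, which binds VEGF-A with high affinity, was 4.31, 4.69 and 5.40 against 7.39 and 7.98. Flt4, the receptor of VEGF-C, was 3.15, 2.97 and 3.12 against 4.94 and 5.10. All 3 receptors lay above all other 11 arrays. The coreceptor Nrp1 was 8.15, 5.04 and 5.72 against 8.86 and 8.78, with endothelial-poor array 1 close to the endothelial-rich arrays. Among the ligands, Pgf was 3.78, 3.90 and 4.01 against 6.33 and 6.21 and Vegfc was 3.42, 2.01 and 2.01 against 5.19 and 4.97. Vegfa itself was 7.50, 6.63 and 6.52 against 5.84 and 6.52, a difference of -0.70, and was not counted.

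Of 6 angiopoietin and Tie genes, 4 were higher, Tek, Tie1, Ptprb and Angpt2, and each lay above all other 11 arrays. Angpt2, the angiopoietin that endothelial cells release, was 3.81, 3.49 and 3.55 against 6.78 and 7.16. Tie1, a receptor that pairs with TEK, was 2.10, 2.01 and 2.01 against 5.23 and 5.34. Angpt1, the ligand made mostly by perivascular cells, was not counted, at 2.33, 2.24 and 2.67 against 2.02 and 2.24. In the Notch list 3 of 12 genes were higher, with a median difference of 0.11 that turned to -0.02 without control array 1. The endothelial receptor Notch4 was 2.01, 3.47 and 2.01 against 6.29 and 5.91, Notch1 was 6.57, 6.32 and 6.37 against 7.93 and 8.04, and the target gene Hey1 was 3.49, 2.75 and 3.73 against 7.52 and 7.24. Dll4, the tip cell ligand, differed by 0.03. Of 11 BMP and TGF-beta receptor genes 3 were higher, namely Bmpr2, the coreceptor Eng and the inhibitor Smad6, with differences of 1.90, 1.53 and 1.15.

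Markers of several vessel types were higher. Of 9 venous and postcapillary genes 6 were higher, with a median difference of 1.88. Selp, the P-selectin that endothelial cells and platelets store, was 5.38, 3.16 and 4.09 against 8.46 and 8.27, and Sele, which endothelium makes under inflammatory signals, was 2.61, 2.16 and 2.01 against 5.83 and 5.26. Of 13 arterial and tip cell genes 7 were higher, with a median of 1.00. Of 12 capillary genes 5 were higher, with a median of 0.84, and Aqp1, a water channel, was 4.05, 4.26 and 4.32 against 7.89 and 8.04. Of 5 lymphatic genes 3 were higher, Mmrn1, Reln and Flt4. Prox1, the factor that defines lymphatic endothelium, was at the floor on all 5 control arrays. The median of the lymphatic list was 1.94, and 1.06 with the median over all probe sets of a gene. Of 6 sinusoidal and scavenger genes 1 was higher, Stab1, with a difference of 1.23, and the list median was 0.03. Mrc1 of that list differed by 2.76, but the sets overlapped. Stab2 and Clec4g, which mark liver sinusoids, differed by -0.06 and 0.11. Of 10 tumor endothelial markers 6 were higher, and Cd248, which pericytes and fibroblasts carry, was lower by 1.14.

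The endothelial transcription factors were split. Of 23 counted, 9 were higher, among them the SoxF factors Sox7, Sox17 and Sox18, the hypoxia factor Epas1 (HIF-2α) and the ETS factor Ets1. Epas1 was 7.08, 6.31 and 6.60 against 9.72 and 9.84, above the highest B20 array at 8.61. Ets1 was 8.49, 6.35 and 8.05 against 10.14 and 10.57. Against them 3 factors were lower. Klf2 and Klf4, which respond to blood flow in endothelium and are also made by myeloid cells, were 7.29, 9.80 and 9.45 against 6.47 and 6.28, and 9.97, 11.11 and 11.42 against 8.35 and 8.89. Lyl1, a factor shared with blood cells, was 5.07, 5.76 and 5.16 against 3.51 and 3.62, below all other 11 arrays.

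The vessel basement membrane followed the endothelial genes. Of 14 genes 11 were higher and 0 lower, with a median difference of 2.64, and 9 lay above all other 11 arrays. The list median was 7.64 and 7.69 on the endothelial-rich arrays and 4.67 to 5.002 on the endothelial-poor arrays. Col4a1, a chain of type IV collagen, was 7.48, 6.77 and 7.24 against 11.13 and 11.11. Col4a2, its partner chain, was 5.59, 4.77 and 5.15 against 9.38 and 9.61. Lamb1, a laminin chain, was 5.81, 5.56 and 6.27 against 9.59 and 9.50, and Sparcl1, a matrix glycoprotein, was 4.81, 3.09 and 3.33 against 8.07 and 7.78. Lama5, Lamb2 and Hspg2 were not counted.

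Most genes of other stromal cells did not follow. Of 11 pericyte and smooth muscle genes 2 were higher, Rgs5 and Mcam, both of which endothelial cells can express. The median difference of this list was 0.07. Its level was 4.61 and 4.97 on the endothelial-rich, 3.50 to 4.16 on the endothelial-poor and 2.65 to 5.30 on the B20 arrays. Pdgfrb, the defining receptor of pericytes, was 5.59, 5.12 and 5.97 against 5.38 and 6.15, and the sets overlapped. Of 13 fibroblast genes 0 were higher and 0 lower, with a median difference of -0.46 and a list level of 5.68 to 6.61 on the endothelial-rich, 6.28 to 7.46 on the endothelial-poor and 3.51 to 9.14 on the B20 arrays. That median was -0.09 without control array 3, -0.04 without control array 4 and -0.78 without control array 5.

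Mesothelial and keratin genes were lower on the endothelial-rich arrays. Of 10 genes of mesothelium, the cell layer that covers the peritoneum, 6 were lower and 0 higher, with a median difference of -1.27. Krt8, a keratin of simple epithelia, was 5.81, 6.48 and 7.87 against 4.33 and 5.66, and Wt1, a factor of mesothelium, was 4.15, 4.93 and 4.91 against 3.05 and 3.48. Msln, or mesothelin, was 4.42, 5.95 and 6.33 against 3.51 and 4.45, and the sets overlapped. The list median was 3.41 and 4.33 on the endothelial-rich arrays, 4.29 to 5.25 on the endothelial-poor arrays and 2.91 to 8.31 on the B20 arrays. Of 9 epithelial genes 5 were lower, Krt7, Cldn3, Krt8, Krt18 and Krt19, and the last 3 stand in both lists. The defining epithelial genes Epcam and Cdh1 differed by -0.51 and -0.66 and were not counted.

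**Figure D3:**
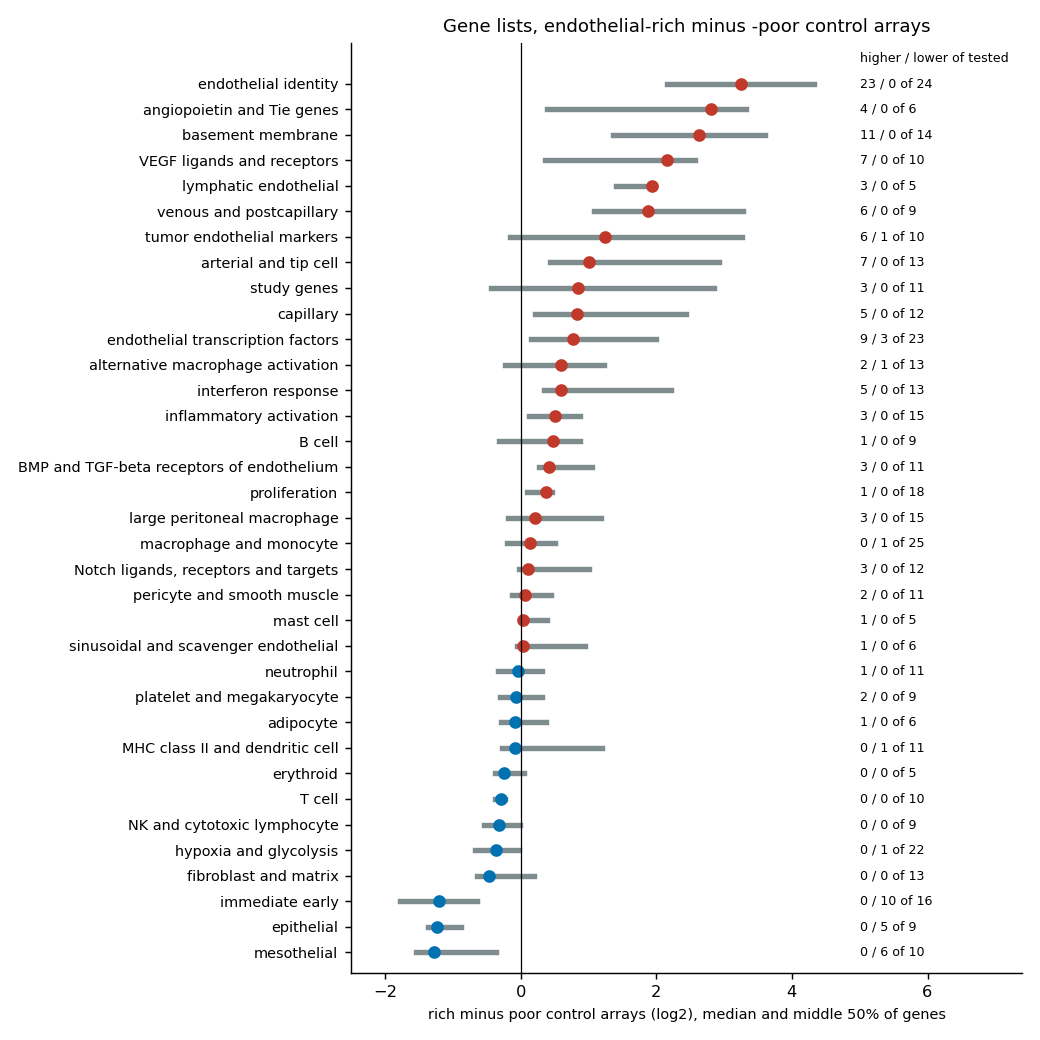
Difference between endothelial-rich and endothelial-poor control arrays (log2) for 35 gene lists, with the median as a point, the quartiles of its genes as a bar, and the number of genes counted as higher and lower at the right. The endothelial identity list had the highest median, 3.25, and the mesothelial list the lowest, -1.27.

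Macrophage genes were abundant on all 5 control arrays. Of 25 macrophage and monocyte genes 0 were higher and 1 was lower, the chemokine receptor Cx3cr1, at 5.07, 4.61 and 4.59 against 3.80 and 3.67. The list median was 8.72 and 9.48 on the endothelial-rich arrays and 8.07 to 9.59 on the endothelial-poor arrays. Csf1r, the receptor of the macrophage growth factor, was 11.22, 10.80 and 10.40 against 10.78 and 10.56, and Ptprc, the pan-leukocyte gene of CD45, was 10.38, 10.19 and 9.95 against 10.11 and 9.85. Both genes overlapped between the sets. Of 9 genes of platelets, which the protocol for the B20 tumors removed on Percoll, Pf4 and Itgb3 were higher, with differences of 1.18 and 3.48, while Gp9, Gp5 and Itga2b were not counted. Of 15 genes of large peritoneal macrophages 3 were higher, Selp, Icam2 and Fabp4, and all 3 are also made by endothelial cells.

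Several macrophage genes varied among the control arrays in another way, with endothelial-poor array 1 at the level of the endothelial-rich arrays. These genes were picked after their values were seen. Cd5l, the secreted macrophage protein that the study is about, was 7.97, 3.90 and 3.34 on endothelial-poor arrays 1, 2 and 3 and 8.71 and 6.61 on endothelial-rich arrays 4 and 5. Control array 1 lay between the 2 endothelial-rich arrays, so Cd5l was not counted, and it was high without Cdh5 there. The scavenger receptor Marco was 8.49, 4.64 and 2.72 against 8.38 and 7.44, the mannose receptor Mrc1 was 9.59, 5.10 and 3.67 against 9.02 and 8.72, and the fatty acid receptor Cd36 was 8.36, 5.91 and 4.93 against 8.13 and 7.03. Il10, an anti-inflammatory cytokine, was 8.31, 4.86 and 2.91 against 9.03 and 8.70. Il10 was counted as higher, but its gap between array 1 and the endothelial-rich arrays was smaller than that between array 1 and arrays 2 and 3. The antigen-presentation gene Cd74 was 10.40, 7.52 and 6.68 against 9.05 and 9.66, and the immunoglobulin gene Ighm was 12.39, 5.13 and 4.82 against 7.61 and 12.22, so that endothelial-rich arrays 4 and 5 differed widely from each other. Related genes did not all vary in this way. Of 11 antigen-presentation and dendritic cell genes 0 were higher and 1 was lower, H2-Eb1, at 8.32, 8.38 and 8.27 against 6.50 and 7.47. Vsig4, a gene of the large peritoneal macrophage list like Cd5l, was 7.37, 7.82 and 6.54 against 7.41 and 4.17.

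**Figure D4:**
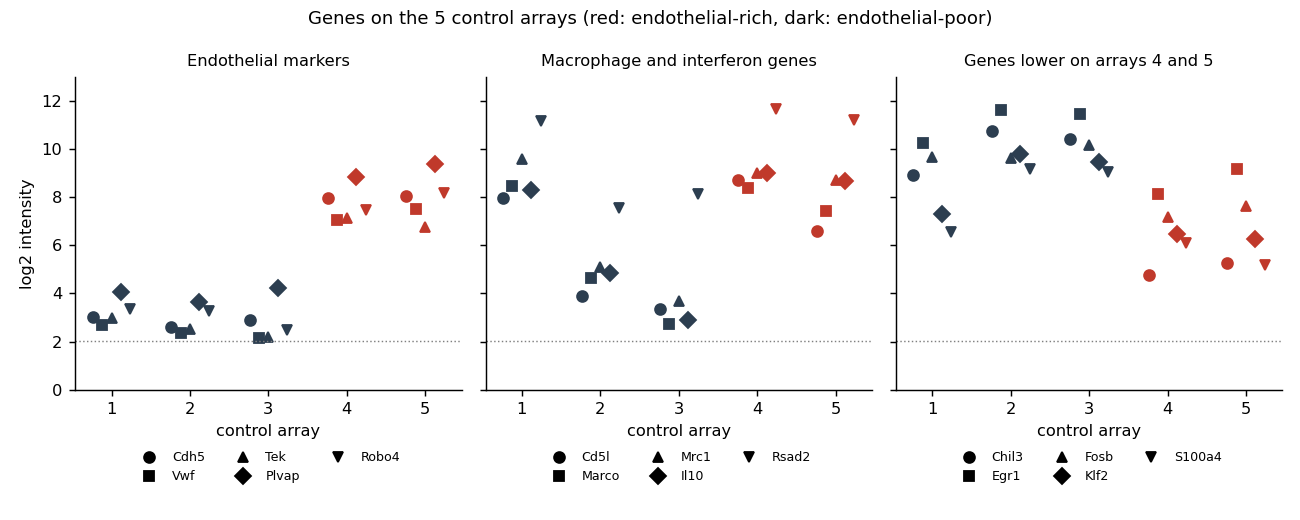
Log2 intensity of 15 genes on the 5 control arrays, endothelial-rich arrays in red and endothelial-poor arrays in dark, with the floor dotted. Endothelial markers were high on arrays 4 and 5, Cd5l, Marco, Mrc1, Il10 and Rsad2 on arrays 1, 4 and 5, and Chil3, Egr1, Fosb, Klf2 and S100a4 were lowest on arrays 4 and 5.

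Interferon and inflammatory genes were partly higher. Of 13 interferon response genes 5 were higher, and the antiviral gene Rsad2 was 11.18, 7.58 and 8.13 against 11.68 and 11.20. Ifit1 was 6.01, 2.97 and 2.21 against 6.90 and 6.17. For both genes endothelial-poor array 1 was close to the endothelial-rich arrays. Of 15 inflammatory genes 3 were higher. Icam1, the leukocyte adhesion molecule, was 8.42, 9.22 and 8.89 against 10.63 and 10.82. Ptgs2, or cyclooxygenase 2, was 10.52, 8.78 and 8.40 against 11.43 and 11.28, with array 1 again closer to the endothelial-rich arrays than to arrays 2 and 3. Il6 was 8.74, 8.43 and 8.74 against 9.97 and 9.75, and reached 10.58 on B20-resistant array 1, above both endothelial-rich arrays. Of 18 proliferation genes 1 was higher, Mki67, the gene of the Ki-67 antigen, at 7.34, 5.81 and 6.09 against 8.46 and 8.46. Of 10 T cell, 9 NK cell and 5 red cell genes, 0 were counted in either direction. Over all genes 4.14% were higher and 1.71% lower, so counts of 0 or 1 in lists this short are near those shares. All 10 T cell genes and 7 of 9 NK cell genes had differences below 0, as had 9261 of all 15181 genes.

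The genes with the lowest differences came from several groups. Chil3, a chitinase-like protein of myeloid cells, was 8.91, 10.74 and 10.42 against 4.76 and 5.27, lower by 5.01 on the log2 scale. The next gene, Car3, a carbonic anhydrase of fat and muscle, was 5.67, 6.04 and 7.35 against 2.64 and 3.08. S100a4, a calcium-binding protein of motile cells, was 6.57, 9.19 and 9.06 against 6.08 and 5.18. Spn, the leukocyte sialoprotein CD43, was 5.36, 7.60 and 6.74 against 3.29 and 4.46. Adgre4, a myeloid adhesion receptor, was 5.46, 6.78 and 5.94 against 2.97 and 3.80. The others among the 12 were Cyp2e1, Egr1, Klf2, Ptpro, Rab7b, Fosb and Smpdl3b, with differences of -2.63 to -2.34. On the B20 arrays Chil3 ran from 4.64 to 10.05, so its low values on the endothelial-rich arrays were also found elsewhere in the series. Car3 ran from 3.59 to 10.02 there and Cyp2e1, a cytochrome P450, from 3.98 to 8.05, and both were lower on the endothelial-rich arrays than on any B20 array.

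Immediate early genes, which cells switch on within minutes of a stimulus or of handling, were lower on the endothelial-rich arrays. Of 16 genes 10 were lower and 0 higher, with a median difference of -1.20. The list median was 7.39 and 7.76 on the endothelial-rich arrays, 8.84 to 9.74 on the endothelial-poor arrays and 8.08 to 10.50 on the B20 arrays. Egr1 was 10.27, 11.62 and 11.48 against 8.14 and 9.16, Fos was 10.15, 11.46 and 11.88 against 9.18 and 9.22, and Fosb was 9.67, 9.62 and 10.20 against 7.20 and 7.63. Nr4a1, an orphan nuclear receptor, was 8.57, 9.44 and 9.62 against 7.05 and 7.81. Egr1, Fos, Nr4a1, Jund, Ier2 and Btg2 were below all other 11 arrays. Ier3 differed by 0.05 and Dusp1 by -0.66. Serum response factor, a known activator of this class, binds the CArG box, which was in 5 of 16 promoters of 12 genes of the list and in 1.63% of all promoters. Of those 5, 4 were promoters of 1 gene, Egr2, and 3 of these overlap and share 1 match. The Egr2 promoter at chr10:67537316-67537615 on the plus strand of GRCm38.p6, is shown with the box in capitals.
Egr2: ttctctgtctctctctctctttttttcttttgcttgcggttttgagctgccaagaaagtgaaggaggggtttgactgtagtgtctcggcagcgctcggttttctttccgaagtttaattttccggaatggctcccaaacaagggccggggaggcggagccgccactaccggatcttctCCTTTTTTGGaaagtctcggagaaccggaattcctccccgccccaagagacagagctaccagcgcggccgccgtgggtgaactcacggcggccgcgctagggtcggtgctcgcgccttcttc
Egr2 was among the lower genes, at 8.79, 8.20 and 7.73 against 7.01 and 7.37.

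The arrays of each set were compared over all 15181 genes. The 2 endothelial-rich arrays correlated at 0.984 with each other across genes, which are not independent replicates. The endothelial-poor arrays correlated at 0.944 (1 and 2), 0.904 (1 and 3) and 0.953 (2 and 3), and pairs across the sets at 0.903 to 0.950. Between endothelial-rich arrays 4 and 5, 1.9% of genes differed at least 2-fold, against 8.2%, 11.2% and 19.5% within pairs of endothelial-poor arrays. Trimmed mean intensity before normalization was 32.6 and 31.1 on the endothelial-rich arrays and 33.1, 32.3 and 23.8 on the endothelial-poor arrays. The difference between 3′ and 5′ probe sets of control transcripts, which grows as RNA is shorter, was 3.02 and 2.91 on the log2 scale against 2.74, 2.38 and 2.54. Both endothelial-rich arrays lay above the endothelial-poor arrays by this measure and within the range of the B20 arrays, 2.23 to 5.95, and its part in the differences was not tested. Between 14551 and 14654 genes lay above the floor on each control array.

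The labelled groups were then compared with and without control arrays 4 and 5, by limma with Benjamini-Hochberg adjustment over 15370 genes. With all 5 control arrays, 0 genes (0%) passed an adjusted p of 0.05 between B20-sensitive and control, B20-resistant and control, or B20-resistant and B20-sensitive arrays, and 1828, 386 and 1087 genes had an unadjusted p under 0.05. Without control arrays 4 and 5 the counts were again 0 (0%), with 1039, 252 and 841 genes at an unadjusted p under 0.05. A plain t-test with all 5 control arrays gave 1370, 1041 and 528 genes at an unadjusted p under 0.05, the threshold of the study's methods. After Benjamini-Hochberg adjustment it gave 0 genes in each comparison. The methods of the study used a random variance model and their own filters, which were not applied here. The direction of the endothelial genes depended on these arrays. The median of the endothelial identity list, B20-sensitive minus control, was -1.42, with 23 of 24 genes below 0. Without the 2 arrays it was 0.13, with 15 of 24 genes above 0. B20-resistant minus control, it was -0.75 with 21 genes below 0, and 0.59 with 22 genes above 0 without them. The median over all genes tested lay between 0.01 and 0.09 in these 4 settings. Since the arrays were set aside for an endothelial gene, this shift follows from their choice.

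Single markers changed in the same way. Cdh5, B20-sensitive minus control, was -2.42 (SE 1.07, limma adjusted p = 0.402), and -0.35 (SE 0.39) without the endothelial-rich arrays. B20-resistant minus control, Cdh5 was -1.30 (SE 1.07, limma adjusted p = 1.00) and 0.77 (SE 0.39) without them. Plvap, B20-resistant minus control, was -0.11 (SE 1.09) and 1.94 (SE 0.50) without them, and Vwf was -0.76 (SE 1.04) and 1.19 (SE 0.47). Robo4 went from -0.98 (SE 0.99) to 0.94 (SE 0.34) and Tek from -1.18 (SE 0.93) to 0.57 (SE 0.39). None of these values passed the adjusted threshold in either setting. The standard errors of the 5 markers ran from 0.93 to 1.09 with all control arrays and from 0.34 to 0.50 without these 2. Cdh5 chose the arrays left out, so its shift and its smaller errors follow from that choice. For the other markers they follow from the differences between both sets of control arrays given above. B20-resistant minus B20-sensitive values do not use the control arrays, and only their errors changed, with Plvap at 1.73 (SE 1.14, and 0.47 without the endothelial-rich arrays, limma adjusted p = 0.783 and 0.752).

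**Figure D5:**
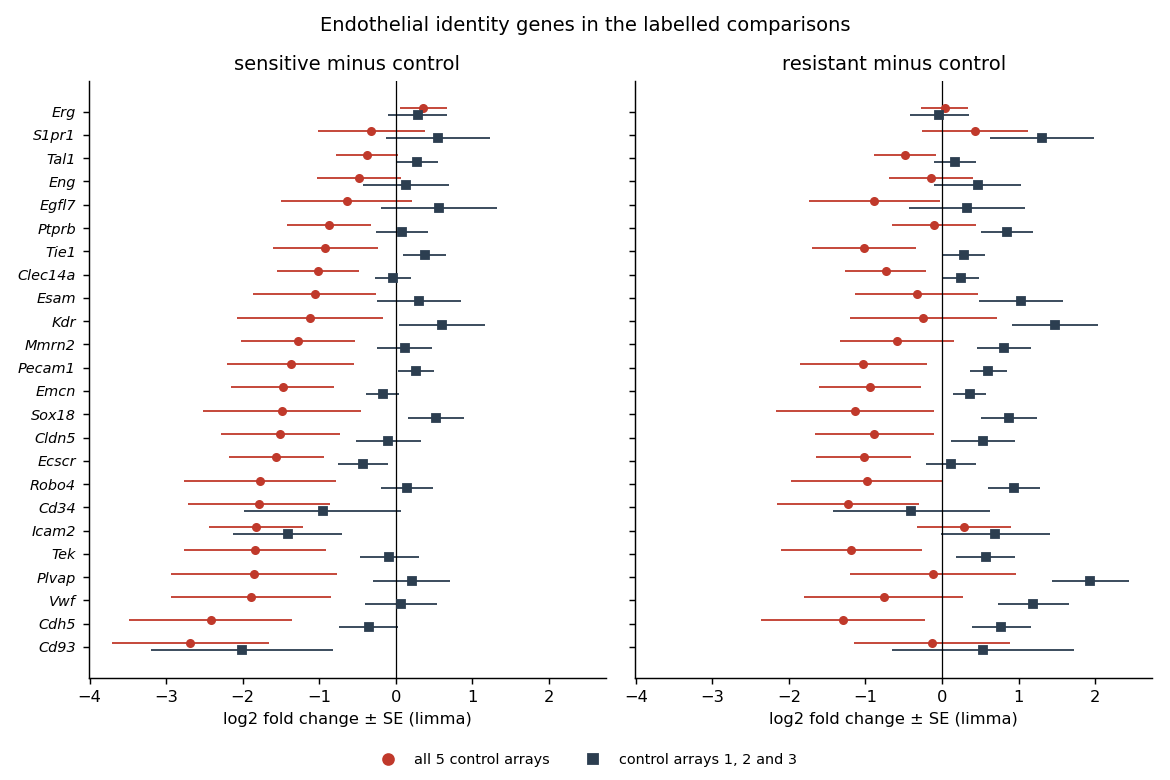
Log2 fold change with its standard error (limma) of 24 endothelial identity genes, B20-sensitive minus control at the left and B20-resistant minus control at the right, with all 5 control arrays (red) and with control arrays 1, 2 and 3 (dark). With all controls 23 and 21 genes lie below 0, and without the endothelial-rich arrays 15 and 22 lie above it.

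Other lists moved with these arrays as well. Only the control means changed, so such shifts restate the differences between both sets of control arrays described above. The basement membrane list had medians of -0.95 and -0.52, B20-sensitive and B20-resistant minus control, and 0.34 and 0.44 without the endothelial-rich arrays. The mesothelial list had 1.29 and 1.13, and 0.75 and 0.53 without them, and the immediate early list had 0.41 and 0.56, and 0.00 and 0.13 without them. The macrophage list moved less, from -2.32 to -2.02 B20-sensitive minus control and from 0.09 to 0.13 B20-resistant minus control. Cd5l, B20-resistant minus control, was 2.43 (SE 0.96) with all controls and 3.47 (SE 0.95) without control arrays 4 and 5, with a limma adjusted p of 1.00 in both settings. B20-sensitive minus control, Cd5l was -2.42 (SE 0.96) and -1.39 (SE 0.95). Chil3 was -1.64 (SE 1.32) and -3.64 (SE 1.08) in B20-sensitive minus control. Of the 629 genes higher on the endothelial-rich arrays, 617 were tested in the labelled comparisons. Their median B20-resistant minus B20-sensitive, which uses neither set of control arrays, was 0.14 with 376 genes above and 240 below 0, where the median over all genes tested was -0.07. The 259 genes lower on the endothelial-rich arrays had a median of 0.36 in the same comparison, with 201 above and 58 below 0, so a median above that of all genes was not particular to the higher genes.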

How the data were processed

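Cells labelled as sorted with a CD31 antibody were measured on 13 single-color arrays in 3 labelled groups (control n = 5, B20-sensitive n = 4, B20-resistant n = 4). Accounts of the upstream processing differ. The submitters' processing notes name MAS5 with no version, while the study's methods speak of Illumina bead chips and of BRB-ArrayTools. The deposited table held 45101 Affymetrix probe sets, and its values, taken as log2 intensities from their range of 0.46 to 13.0 and from spiked controls (BioB 6.35, CreX 11.7), were used as deposited by the authors. Neither the log base nor the normalization is given in the sources used here.

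Trimmed mean intensities differed by up to 1.73 times between arrays, so the arrays were quantile normalized, and values under the 30th percentile (2.01) were set to it. By the platform annotation 34945 probe sets named 1 gene, 932 named several and 9211 named none, and 64 control probe sets were not used. Where a gene had several probe sets, the brightest on average stood for it, which gave 18193 genes. The description covers 15181 genes that exceeded the floor on 2 or more control arrays, and 15370 genes that exceeded it on 4 or more arrays were tested in the labelled comparisons (15370). Those were fitted over the 3 groups with limma 3.58.1 in R 4.3.3, with an intensity trend, two-sided, with Benjamini-Hochberg adjustment. No level was set against that of another probe set. Of 414 different genes in 35 lists, 377 were counted, and 2 names were matched through a synonym. The counting rule and the limma fit were tested on simulated data.

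The arrays, genes and lists were chosen with earlier results of these data known. Named genes are the 5 markers, 11 genes the study is about, the 12 largest differences each way among counted genes above 3.70 on every array of the higher set, up to 4 members with the largest differences of each list, and defining members. Precision is limited by the number of arrays. Alternatives covered scaling, floor, filter, probe set rule, size of difference, variance model, the methods' t-test, the replicate block and leaving out arrays.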

Additional observations from a re-analysis of the deposited data

Results flagged for a closer look

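Of 194 groups of values of the named genes and lists that were examined for a single array far from the rest, 12 held one, and chance alone marks about 1 in 20 groups. On control array 1 the median of the NK and cytotoxic lymphocyte list was 4.34, against 2.55 to 2.74 on the other control arrays, Nkg7 was 5.03 against 2.45 to 2.82, Prf1 was 4.48 against 2.46 to 2.88, Klrd1 was 3.94 against 2.01 to 2.34, and Cd2 was 4.83 against 2.01 to 2.68. The T cell list median was also highest on array 1, at 4.41 against 2.72 to 3.38, but this rule did not mark it. On control array 3 the platelet list had a median of 4.41 against 3.81 to 3.95, Treml1 was 5.17 against 3.49 to 3.91, Zap70 was 6.60 against 5.47 to 5.67, Cd3e was 5.21 against 4.03 to 4.36, and Tpsb2 was 3.72 against 2.58 to 2.73. Fap, a protease of fibroblasts, was 2.37 on control array 2 and 4.17 to 4.39 on the others. None of these lay on an endothelial-rich array, but the rule marks only a single array, so a level shared by both endothelial-rich arrays could not be marked. Among the B20 arrays, the macrophage and monocyte list had a median of 9.66 on B20-sensitive array 4 and 4.59 to 5.24 on the other B20-sensitive arrays.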

How the results depend on the processing

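The higher and lower genes numbered 221 and 21 with a difference of at least 2, and 1900 and 2501 with any difference and no overlap. Leaving out single control arrays gave 594 to 991 higher and 232 to 522 lower genes, with both highest counts without control array 1. The endothelial identity list had a median of 3.47 on the values as deposited, 2.96 with the floor at the 50th percentile and 2.84 with the median over probe sets, and the median of the macrophage list turned from 0.14 to -0.08 under the last of these and to -0.11 and -0.03 without control arrays 3 and 4. The median over all genes moved by less than 0.1 under any scaling, and the sinusoidal and mast cell lists, both near 0, changed sign with scaling.

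B20-resistant minus B20-sensitive, 2 genes were called when only the arrays of both groups were fitted. Leaving out single arrays gave 0 to 696 called genes B20-sensitive minus control and 0 to 428 B20-resistant minus B20-sensitive, both highest without B20-sensitive array 4, with 1 gene in the former without control array 3 and 4 in the latter without control array 1. Without the endothelial-rich arrays, Plvap, Robo4 and Vwf turned to 0.21, 0.15 and 0.067 B20-sensitive minus control, and Cdh5, Plvap, Robo4, Tek and Vwf turned to 0.77, 1.94, 0.94, 0.57 and 1.19 B20-resistant minus control. In the latter, leaving out 1 array at a time gave Plvap values of -0.71 to 0.72, above 0 without control array 4 (0.59), control array 5 (0.72) or B20-resistant array 2 (0.14), and Vwf values of -1.31 to 0.025, above 0 without control array 5.

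With the replicate number as a block, which also drops control array 5 from the group comparison, 0 genes were called in each comparison, Plvap was 0.72 and Vwf 0.025 B20-resistant minus control. Deviations of same-numbered arrays from their group means correlated at -0.43 to 0.53. Values of both signs cannot decide whether the numbers pair the samples, and the labels give no pairing. The cause of these changes was not tested.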
